A study of Rattus norvegicus with 18 samples.

Results

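The comparison described here is that of the retina of untreated diabetic rats with the retina of healthy rats. It rests on 12 of the 18 libraries of the series, chosen by the group in their titles, 6 from healthy controls (NC) and 6 from diabetic animals that received no lixisenatide (DC). All animals were male Wistar rats, 8 weeks old at the start. DC animals had received 35 mg/kg streptozotocin intravenously and counted as diabetic with a blood glucose above 14 mmol/l in the week after, while NC animals were age-matched and had no diabetes. The labels give placebo as the treatment of both groups. Retinae were taken at 12 weeks, in DC after as long a hyperglycemia, and RNA of the whole retina of each animal gave 1 library of single-end 50 bp reads from mRNA. The other 6 libraries, from diabetic animals given lixisenatide at 150 µg/kg body weight (DC + Lixi), entered the same fit, where they shared the estimate of the spread and counted in the filter on low counts.

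Streptozotocin is toxic to the beta cells of the pancreas, which make insulin, so the model is one of insulin deficiency and high blood glucose rather than of insulin resistance. Diabetic retinopathy damages the retina as a neurovascular unit, that is, its neurons, its glia (Müller cells, astrocytes and microglia) and its capillaries. Whole retina holds all of these, with photoreceptors as the most numerous cells in rodents. In RNA of whole tissue, fewer cells of a type and less RNA per cell cannot be told apart.

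The values are estimated counts and FPKM for 32623 genes, which the files identify by Ensembl rat gene numbers. Neither the files nor the reference table used here pair these numbers with names, and a name was not guessed. The labelled tissue was therefore not checked against its markers, no pathway or cell type could be described, and genes are given by number or by their place in an order. Counts were scaled to CPM (counts per 1 M counts of the library) with TMM factors, which correct for differences in composition between libraries. A gene was called at an adjusted p under 0.05 in edgeR's quasi-likelihood test, and 16524 genes had enough counts to be tested. Total counts were 31291632 to 35397905 in NC and 28311699 to 32410763 in DC, and 20165 to 20399 genes in NC and 20012 to 20523 in DC had a count above 0. Nothing in the labels pairs the animals of both groups.

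Diabetic retina differed from healthy retina in 2652 genes, 16.0% of those tested. Of these, 1547 genes (9.36% of those tested) were higher and 1105 genes (6.69%) were lower in DC. The genes that rose differed in size from those that fell. Between the 5th and the 95th percentile, the log2 fold change ran from 0.14 to 1.80 among the former and from -0.13 to -0.88 among the latter. The median standard error was 0.11 for the genes that rose and 0.06 for those that fell, and changes of a few percent were called in both directions. The smallest rise called was 1.06-fold, and the smallest fall called was 1.06-fold as well. Of the called genes, 721 (4.36% of those tested) had changed by at least 1.5-fold, namely 611 of the genes that rose (39.5%) and 110 of those that fell (9.95%). The median log2 fold change of all tested genes was 0.00. Leaving out 1 animal moved the count of called genes by more than 1.5 times in 2 cases, to 1752 without DC animal 390 and to 1485 without DC animal 430. It was 3531 without DC animal 425.

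**Figure D1:**
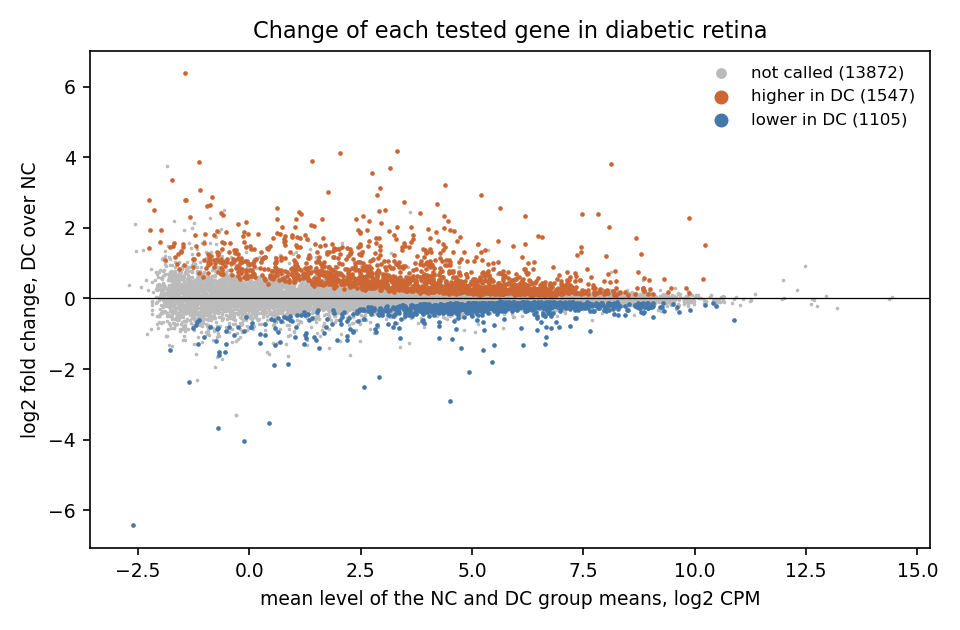
Each point is 1 of the 16524 tested genes, with the mean of the NC and DC levels (log2 CPM) on the x axis and the log2 fold change of DC over NC on the y axis. The 1547 genes higher in DC (orange) reach further from 0 than the 1105 genes lower in DC (blue).

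The gene with the smallest p among those that rose was ENSRNOG00000019018, with a length of 2542 bp as implied by its count and FPKM. Its CPM was 21.4, 21.1, 21.6, 23.7, 20.9 and 25.4 in NC animals 431, 432, 433, 437, 438 and 439. In DC animals 386, 390, 396, 407, 425 and 430 it was 36.6, 36.2, 30.2, 36.5, 35.8 and 40.0. All 6 DC animals stood above all 6 NC animals, and DC animal 425 stood among the others. The means were 22.3 ± 1.80 (SD, n = 6) and 35.9 ± 3.17 (SD, n = 6). The log2 fold change was 0.68 (standard error 0.07, adjusted p = 0.000122, edgeR). Adjusted for gene length, its level was 8.85 FPKM in NC and 14.2 FPKM in DC. Its rise of 1.61-fold by the ratio of the means was just above 1.5-fold, with little spread among animals.

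ENSRNOG00000015859 followed, with an implied length of 3405 bp. In the order of animals given above, its CPM was 2.39, 2.89, 2.67, 2.17, 2.0 and 2.18 in NC, against 9.83, 7.10, 9.42, 7.5, 7.18 and 11.3 in DC. The groups were far apart, as the lowest DC animal, 390, still had more than the highest NC animal, 432. The log2 fold change was 1.87 (standard error 0.21, adjusted p = 0.000256, edgeR). Counts ran from 70 to 95 in NC and from 199 to 360 in DC, so this gene was measured on fewer reads than the former, which had 673 to 1274.

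Among the genes that fell, ENSRNOG00000004229 had the smallest p and a short implied length of 723 bp. Its CPM was 8.18, 8.66, 10.6, 9.14, 10.4 and 9.55 in NC, and 4.81, 3.96, 4.54, 5.13, 5.59 and 5.34 in DC. Every DC animal was below every NC animal, with DC 425 as the highest of its group. The log2 fold change was -0.94 (standard error 0.11, adjusted p = 0.00051, edgeR). ENSRNOG00000034230 (1553 bp) had 1.65, 2.22, 2.79, 1.95, 2.14 and 2.03 CPM in NC. In DC it had 0.558, 0.433, 1.12, 0.861, 1.05 and 1.10 CPM, again without overlap. The log2 fold change was -1.32 (standard error 0.19, adjusted p = 0.00129, edgeR). It was measured on 13 to 35 counts in DC and was also the eighth of the largest falls described below. By length the first of these stood at 13.1 FPKM in NC and the second at 1.38 FPKM.

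**Figure D2:**
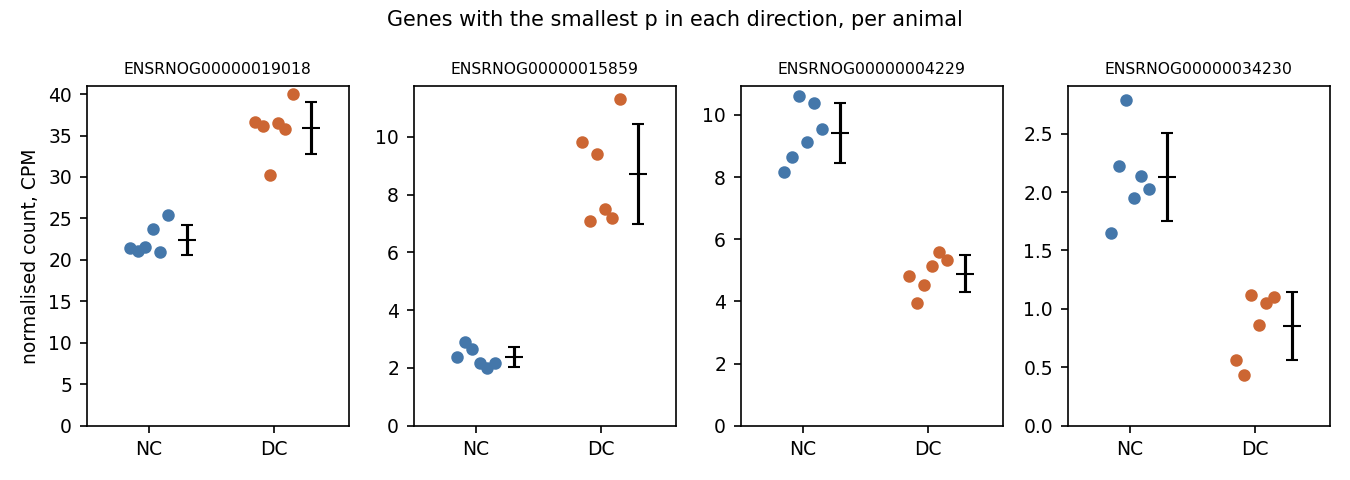
Normalised count (CPM, y axis from 0) of the 4 genes in each NC (blue) and DC (orange) animal, with the mean and SD in black. In each gene the 6 DC animals lie beyond the 6 NC animals.

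These 4 genes stood for a larger set in which the animals of both groups did not overlap. In 660 genes (3.99% of those tested) every DC animal was above every NC animal, and in 293 genes (1.77%) every DC animal was below. Of these, 631 and 273 were also called, which is 40.8% of the genes that rose and 24.7% of those that fell. The other 29 and 20 genes were not called. Most called genes thus had at least 1 animal inside the range of the other group.

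The 12 largest rises were taken from the 600 called genes without overlap that had a mean CPM of at least 1 in DC. This choice fixed their direction, so their values are a description. Their log2 fold changes were 2.57 to 4.19 and their adjusted p-values 0.00129 to 0.00463 (edgeR). They included genes of very different levels, with DC means from 4.95 to 523 CPM.

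The largest of these rises was 18.3-fold by the ratio of the means (log2 fold change 4.19, standard error 0.79, adjusted p = 0.00295, edgeR). The NC animals had 0.589 to 1.82 CPM. In DC animals 386, 390, 396, 407, 425 and 430 it was 22.7, 20.4, 17.4, 23.2, 2.53 and 27.8 CPM. DC 425 was above all NC animals but far below the rest of its own group. The other 5 DC animals lay close together.

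The most abundant of the 12 was the fourth by rise. Its CPM was 37.8, 48.8, 51.8, 26.6, 20.9 and 36.8 in NC, and 599, 445, 503, 579, 296 and 718 in DC. It rose 14.1-fold by the ratio of the means (log2 fold change 3.82, standard error 0.60, adjusted p = 0.00141, edgeR), from 14.5 ± 5.05 (SD, n = 6) to 207 ± 60.1 (SD, n = 6) FPKM. It was measured on 734 to 1709 counts in NC and 8193 to 22860 in DC. Here too DC 425 was the lowest and DC 430 the highest of the group.

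The seventh rise was the steadiest of the 12. Its CPM was 3.46 to 4.89 in NC and 41.1, 33.0, 30.2, 40.6, 32.8 and 49.0 in DC, so the highest DC animal had 1.62 times the lowest. Its log2 fold change was 3.2 (standard error 0.48, adjusted p = 0.00129, edgeR), and DC 425 stood within the range of the other DC animals. The tenth rise had another order of animals. It stood at 5.22 to 10.2 CPM in NC and at 29.4, 66.9, 115, 104, 16.4 and 60.9 in DC, with DC 396 and 407 highest and DC 386 and 425 lowest.

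Over the 12 genes, DC 425 was the lowest diabetic animal in 11 and DC 430 the highest in 9. The highest DC animal exceeded the lowest by 1.62 to 11 times (median 3.79), where the same ratio among NC animals was 1.38 to 20.2 (median 2.0). The gene with the ratio of 20.2 in NC had as few as 1 count there. The sixth rise, whose count in DC 430 was restored from FPKM, had a log2 fold change of 3.54, and of 2.78 with missing counts left at 0 (adjusted p = 0.0382, edgeR).

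**Figure D3:**
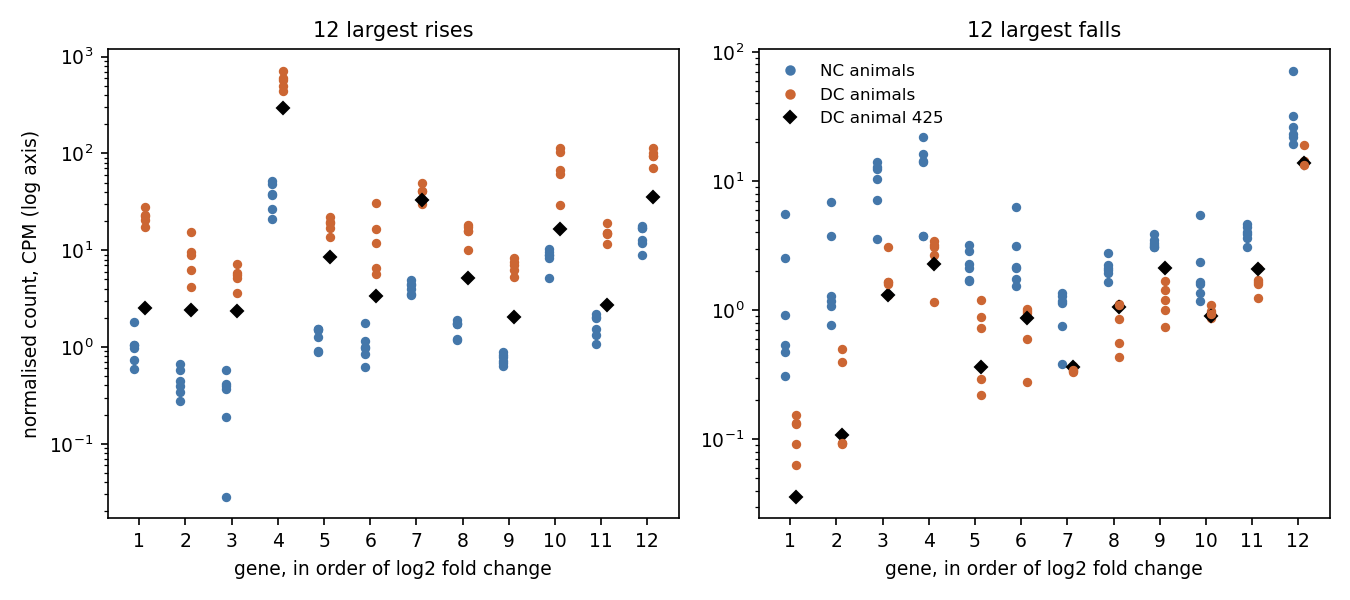
Normalised count (CPM, log axis) in each animal for the 12 largest rises (left) and the 12 largest falls (right), in order of log2 fold change, with NC in blue, DC in orange and DC animal 425 as a black diamond. The diamond is the lowest DC value in 11 of the 12 rises. In the falls the NC values spread widely for several genes, some with a value restored from FPKM.

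The 12 largest falls were taken in the same way from the 269 called genes without overlap that had a mean CPM of at least 1 in NC. Their log2 fold changes were -1.14 to -4.02 and their adjusted p-values 0.00129 to 0.0252 (edgeR). All were of low or moderate level, with NC means of 1.02 to 32.4 CPM. Here the spread lay in the healthy animals more than in the diabetic ones, since the highest NC animal exceeded the lowest by a median of 3.82 times, and the highest DC animal exceeded the lowest by a median of 2.74 times. NC animal 433 was the highest healthy animal in 7 of the 12 falls, and also in 5 of the 12 largest rises. Over all 1105 genes that fell it was the highest healthy animal in 15.8%, against 18.7% of the genes not called. DC 425 was the lowest diabetic animal in 2 of the 12 falls and the highest in 1.

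In the largest fall, the NC animals 431, 432, 433, 437, 438 and 439 had 0.477, 0.911, 5.57, 0.31, 2.54 and 0.537 CPM. All DC animals had 0.0361 to 0.155 CPM, from 1 to 5 counts. The second fall had the same order of the highest NC animals, with 6.94 CPM in 433 and 3.74 in 438 against 0.774 to 1.28 in the other NC animals and 0.0922 to 0.50 in DC. NC 433 and 438 thus carried much of the NC mean in both genes. The count of the largest fall in NC 433 and NC 438, and that of the second in NC 433, was missing from the count table and was restored from FPKM. With missing counts left at 0 the largest fall did not pass the filter and was not tested, which was also so when only NC and DC libraries were used, and the second had a log2 fold change of -2.65 in place of -3.54 (adjusted p = 0.0474, edgeR). Without NC 433 the log2 fold changes were -3.18 and -2.91 in place of -4.02 and -3.54.

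Other falls varied in evenness, with the highest NC animal at 3.97, 1.51 and 3.67 times the lowest in the third, eleventh and twelfth. The third had 3.56, 12.4, 14.1, 12.8, 10.3 and 7.16 CPM in NC and 1.64, 1.30, 3.06, 1.66, 1.30 and 1.6 in DC. Its log2 fold change was -2.51 (standard error 0.49, adjusted p = 0.00353, edgeR). The eleventh had 3.07 to 4.62 CPM in NC and 1.25 to 2.13 in DC. Its log2 fold change was -1.17 (standard error 0.18, adjusted p = 0.00135, edgeR). The twelfth, the most abundant of these genes, had 19.5 to 31.9 CPM in NC animals other than 432, 71.7 CPM in 432 and 13.4 to 18.9 CPM in DC. Its value in NC 432 and that of the tenth fall in the same animal were also restored from FPKM. With missing counts left at 0 neither gene was called (log2 fold changes -0.48 and -0.50, adjusted p = 0.59 and 0.512, edgeR).

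The animals of the DC group differed in how far they stood from NC. To see this without using an animal for its own calls, genes were called again without it, and its log2 CPM was set against the midpoint between the mean of NC and the mean of DC, both taken without it. DC animal 430 stood on the DC side of the midpoint in 906 of 948 genes called higher (95.6%) and in 92.9% of genes called lower. DC 390 did so in 92.2% and 85.3%, DC 407 in 88.3% and 77.3%, DC 386 in 84.8% and 84.4%, and DC 396 in 76.9% and 75.1%. Each share was taken over the genes called without that animal, so the gene sets differ between animals. The part of this in the differences between shares was not tested. These 5 animals were on the side of their group for most genes.

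DC 425 was not. It was on the DC side in 724 of 1950 genes called higher without it (37.1%) and in 509 of 1581 genes called lower (32.2%). It stood above the NC mean in 80.3% of the former and below it in 70.8% of the latter. Healthy animals were set in the same way against the mean of the other NC animals, over the genes called without them. They stood above it in 44.7% to 68.0% of the genes called higher and below it in 42.3% to 84.3% of those called lower. DC 425 was thus beyond the healthy animals in this share for the rises, but within their range for the falls. Its RNA integrity number of 9.2 was the lowest of the DC group, it had the fewest alignments (49487399) and the fewest genes with a count (20012) of the 12 animals, and its 10 most abundant genes took 10.8% of all counts, the highest share of the 12. The part of these values in its place was not tested.

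Healthy animals stood on the NC side of the midpoint in 79.7% to 89.4% of the genes higher in DC. For the genes lower in DC this was 75.8% to 84.7% in 5 of them and 54.4% in NC 437 (598 of 1100 genes). NC 437 was thus on the DC side of the midpoint for many genes that fell. It had the lowest RNA integrity number of the 12, at 8.6, the part of which was not tested.

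**Figure D4:**
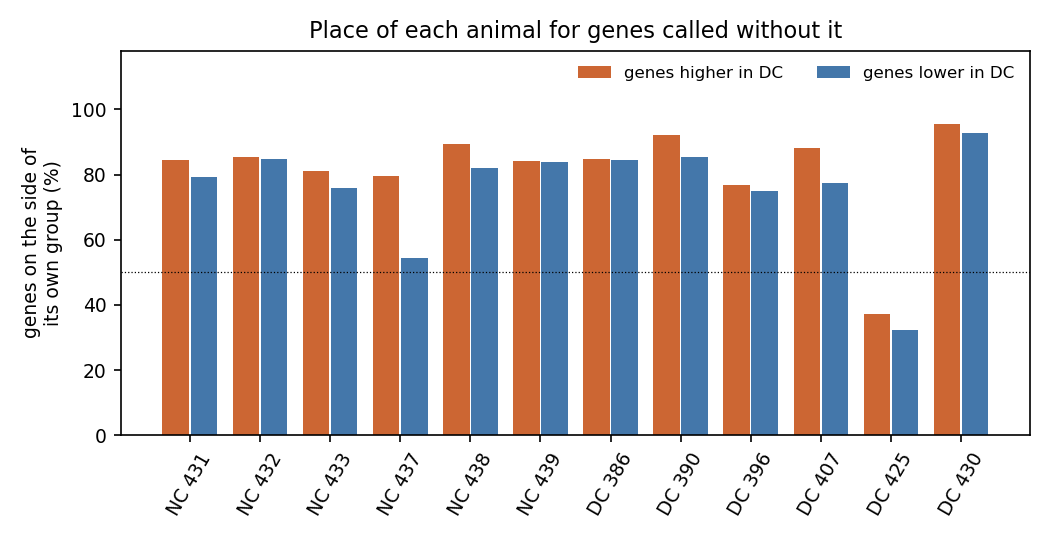
Share of genes (%, y axis from 0) for which each animal stood on the side of its own group, among the genes called higher (orange) and lower (blue) in DC without that animal, with a dotted line at 50%. DC 425 reaches 37.1% and 32.2%, and NC 437 reaches 54.4% for genes lower in DC.

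The same 2 animals, DC 425 and DC 430, marked the ends of the DC group over the called genes as a whole. Of the 1547 genes that rose, DC 425 was the lowest diabetic animal in 943 (61.0%) and DC 430 the highest in 741 (47.9%). DC 390 was the highest in a further 352 genes (22.8%), against 18.5% of the genes not called. DC 390 and 430 together were the top pair in 493 of the 1547, a count that was not taken among the genes not called. Of the 1105 genes that fell, DC 425 was the highest diabetic animal in 606 (54.8%) and DC 430 the lowest in 576 (52.1%). Among the 13872 genes not called, the ends were shared more evenly, with DC 425 lowest in 22.0% and highest in 22.4%, and DC 430 in 19.5% and 18.7%. The called genes were selected with these animals, so these counts are a description.

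DC 425 did not exceed the highest NC animal in 660 of the genes that rose (42.7%), where the other DC animals failed to do so in 65 to 266 genes (4.2% to 17.2%). Among the 307 genes that rose by at least 2-fold, it was within the NC range or below in 111 (36.2%) and the others were in 6 to 30. Among the genes that fell, it was not below the lowest NC animal in 602 (54.5%), against 77 to 247 for the others. These genes too were called with the same animals, and the counts were not taken among the genes not called. They are therefore a description.

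The spread among diabetic animals was wider than that among healthy animals in the called genes. In the genes that rose, the median SD of log2 CPM was 0.141 in NC and 0.186 in DC, and the SD was larger in DC in 67.4% of them. Without DC 425 these values became 0.149 and 51.2%. In the genes that fell, the median SD was 0.0912 in NC and 0.113 in DC (0.0986 without DC 425). Over all tested genes it was 0.129 in NC and 0.139 in DC, and 0.125 without DC 425. Without this animal, the SD over all tested genes was larger in DC in 48.4%, against 55.7% with it. DC 425 was left out after the values were seen and no NC animal was left out, so these SDs come from groups of unlike size.

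Gene length, as implied by the deposited counts and FPKM values, was not used to call genes. When the tested genes were divided into 5 classes of equal size by length, 7.02% were higher and 3.66% were lower in DC in the shortest class (60 to 1200 bp). In the longest (3696 to 23724 bp) these shares were 11.2% and 7.53%. The median log2 fold change was 0.02 in the shortest class and between -0.01 and 0.00 in the 4 others. Levels moved with length too, from a median of 4.80 CPM in the shortest to 48.6 CPM in the longest class, and the part of the number of counts in these shares was not tested.

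A share of the counts was not whole, as can happen when reads are divided between overlapping or near-identical genes. Of 5262 tested genes with such a count in an NC or DC library, 13.7% were called, and of the 11262 others 17.1% were called. How the counts of the former came to be not whole was not tested. Where reads were divided, the part given to each gene is uncertain.

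RNA quality differed between the groups too. The RNA integrity number, a score of how intact the RNA is, was 8.6 to 8.9 (median 8.8) in NC and 9.2 to 9.5 (median 9.35) in DC, without overlap. The means were 8.77 ± 0.103 and 9.35 ± 0.105 (SD, n = 6 each), DC being higher by 0.583 (two-sided exact permutation p = 0.00216, the lowest value possible with 6 against 6, and 0.0173 after adjustment over 8 measures of the libraries). RNA concentration was 327 ± 127 ng/µl in NC and 537 ± 50.2 ng/µl in DC (SD, n = 6 each, two-sided exact permutation p = 0.00866, and 0.0346 after adjustment). The total count was 32817091 in NC and 30607162 in DC on average, a difference that did not pass after adjustment (two-sided exact permutation p = 0.0303, adjusted to 0.0808). The 5 other measures, namely the absorbance ratio, the alignments, the number of genes with a count and the shares of the 10 and the 100 most abundant genes, had adjusted p-values of 0.277 to 0.89 in the same exact permutation test.

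**Figure D5:**
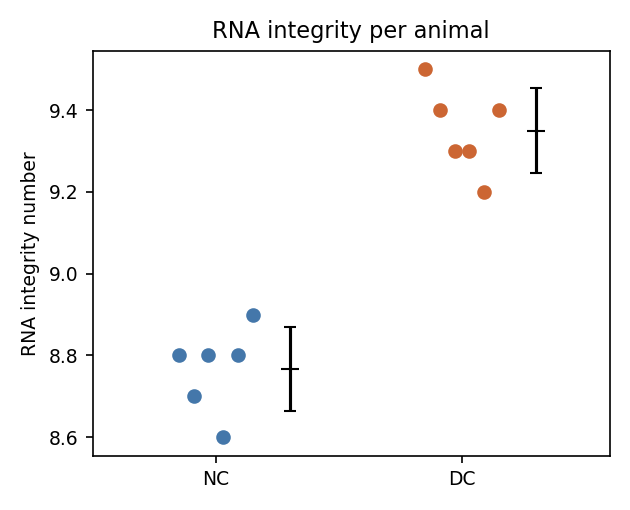
RNA integrity number (y axis, not from 0) of the 6 NC (blue) and 6 DC (orange) animals, with the mean and SD in black. All NC values lie at 8.6 to 8.9 and all DC values at 9.2 to 9.5.

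When RNA integrity was added to the fit of 18 libraries as a covariate, edgeR called 0 genes (smallest adjusted p = 0.053), and 2402 genes had an unadjusted p under 0.05, against 5071 (30.7%) without it. The fit holds a mean per group, so the slope for RNA integrity came from differences within groups. These were widest in DC + Lixi, with values of 8.4 to 9.4, so the slope rested mostly on lixisenatide-treated animals. Of the 2652 called genes, 2649 kept the direction of their change and 1580 had an unadjusted p under 0.05. Their median absolute log2 fold change was 0.31 without and 0.30 with the covariate, while the median standard error went from 0.08 to 0.13. Single genes moved more. The third, the fifth, the sixth and the tenth of the largest falls went from log2 fold changes of -2.51, -1.89, -1.85 and -1.25 to -1.33, -1.13, -1.16 and -0.57, and the second fall went from -3.54 to -4.39. As no NC and DC animals shared a value of RNA integrity, its part in the gene differences and that of diabetes cannot be told apart within these 12 libraries.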

How the data were processed

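Retinal mRNA of 6 NC, 6 DC and 6 DC + Lixi rats was sequenced. Per the methods, Array Studio was used by the authors for alignment to a rat gene model, quantification and normalization, and DESeq2, also named in the submitters' processing notes, for testing. The aligner and build were not given in the sources used here, nor was the annotation. The authors deposited estimated counts, not normalized, of which 26.0% of those above 0 were not whole, and FPKM values, which divide counts by gene length and library total. The deposited sample sheet holds counts of alignments, the RNA integrity number (a score), RNA concentration (ng/µl) and the absorbance ratio as the authors recorded them.

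Of 587214 cells, 46805 held no count, 4081 of them with an FPKM above 0. A count was restored from the FPKM in 1504 (899 in NC and DC libraries, affecting 67 called genes) and the rest were set to 0. On known counts, which also set its scale, this step had a median error of 0.00136% and a 99th percentile of 9.76%. The error on missing counts was not measured. Estimated counts were rounded, although whole counts had been planned for. Genes were filtered by filterByExpr, scaled by TMM (factors 0.967 to 1.05) and tested in edgeR 4.0.16 (R 4.3.3) in 1 fit of 18 libraries with 15 residual degrees of freedom and Benjamini-Hochberg adjustment. The common biological coefficient of variation was 0.142. The steps were tested on simulated data. No library repeated another (chi-square per gene of at least 10.5 in each of 66 pairs). Labels give separate animals. Gene length was taken from count, FPKM and library total. Library measures were compared by exact permutation tests over animals. Alternatives were RLE factors, library totals, no filter, DESeq2 1.42.0, limma-voom and limma on FPKM (limma 3.58.1), only NC and DC libraries, robust estimation, missing counts at 0, RNA integrity as a covariate and leaving out each animal. Other scalings for genes without overlap were added after seeing the data.

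The comparison, lists and rules were chosen with earlier results of these data known. The reference table matched 0 gene numbers, so gene lists, markers, promoter motifs and names could not be applied. By the rule for that case, 4 numbers are given, those with the smallest p in each direction. The 12 largest rises and falls are described without numbers, and those given with values were picked from them after their values were seen.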

Additional observations from a re-analysis of the deposited data

Results flagged for a closer look

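In groups of 6 animals, a highest or lowest value was picked out when its gap to the next animal took an unusually large part of the range. By chance this happens in about 1 of 20 groups if the 6 values are independent and normally distributed. Whether that holds for the 74 groups examined was not checked, and several of them share animals and genes. DC animal 425 was picked out for its place among genes called without it, with 37.1% of the genes higher in DC and 32.2% of those lower in DC on the side of its group. NC animal 437 was picked out with 54.4% of the genes lower in DC.

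Single values were picked out in 4 of the 12 largest falls. They were the third fall in DC animal 396 (3.06 CPM), the sixth in NC 433 (6.30 CPM), the tenth in NC 432 (5.50 CPM), and the twelfth in NC 432 (71.7 CPM) and in DC 390 (18.9 CPM). The values of NC 432 in the tenth and twelfth falls were restored from FPKM. The absorbance ratio of NC 431 (1.86) was the lowest of its group and was also picked out.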

How the results depend on the processing

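Of the 2652 called genes and the 721 called at 1.5-fold or more, both counts became 0 with RNA integrity as a covariate, where 2402 genes had an unadjusted p under 0.05. On deposited FPKM values the latter count was 325 with limma on log2(FPKM + 1), 459 on log2(FPKM + 0.1) and 271 on log2(FPKM + 1) without a filter, where a pseudocount reduces the fold change of genes of low level. The first count was 3078 with DESeq2 and 2545 with limma-voom and stayed within 1.5 times under the other settings. Leaving out 1 animal gave 1485 to 3531 genes, and 483 to 890 at 1.5-fold or more. It left the difference in RNA integrity at 0.55 to 0.613 (exact permutation test, two-sided, p = 0.00216 each time, the lowest value possible). As NC and DC did not overlap in RNA integrity, leaving out 1 animal could not make them overlap. The scaling moved the share of higher genes among those called from 58.3% to 54.7% at most (library totals). On log2(FPKM + 1) and log2(FPKM + 0.1) it was 51.0% (1190 higher, 1144 lower) and 50.9% (1183 higher, 1142 lower) of the genes called, with 14269 genes tested. Every scaling of the counts left the median log2 fold change of all genes at 0.00. Genes without overlap were 660 higher and 293 lower, and 557 and 341 with library totals. For the 4 numbered genes and the 24 largest changes, 27 genes since 1 belongs to both, no alternative reversed a direction. Of 648 repeats of a gene's test, 608 kept the call, 32 lost it and 8 could not be made as the gene did not pass that filter. Of the lost calls, 27 were lost with the RNA integrity covariate, 2 with missing counts at 0, 2 with log2(FPKM + 1) without a filter and 1 without DC animal 430, namely the fifth fall (adjusted p = 0.0626, edgeR). No paired analysis was possible because no animal number is shared between the groups.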

Other observations

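Genes read in only one group were few. Among all 32623 genes, 2 had no count in any NC animal and a count in every DC animal, with at most 14 counts, too few to be tested. No gene was at 0 in all DC animals with a count in every NC animal. Among the tested genes, 1 had no count in any DC animal. It had 0, 13, 24, 17, 11 and 0 counts in NC animals 431, 432, 433, 437, 438 and 439. Its mean in NC was 0.327 CPM (adjusted p = 0.046 for DC against NC, edgeR). That is 20.1 times a limit of 3 counts over the pooled DC libraries. The limit leaves out the spread among animals, so it is not a lower bound of the fold change. The gene passed the filter on low counts only with the help of DC + Lixi libraries. Both NC animals at 0 overlapped with DC.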
